A study of Mus musculus with 6 samples.

Results

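The miR-148/miR-152 and miR-130/miR-301 families are microRNA families whose members have nearly the same seed, the stretch of bases 2 to 8 that pairs with target mRNAs. The members were chosen by name, as the 7 mature 3p strands that carry the names miR-148a, miR-148b, miR-152, miR-130a, miR-130b, miR-301a and miR-301b. Of these names, 6 were measured among the 495 mature miRNAs of the series, 3 in each family, and mmu-miR-301b-3p was not analysed here. Small RNA from kidney tissue of male balb/c mice was sequenced in 3 Control samples and 3 samples exposed to chronic intermittent hypoxia (CIH), a model of the oxygen swings of sleep apnea. In CIH, oxygen in the chamber fell from 21% to 6% within 60 seconds and was brought back within another 60 seconds, a cycle of 2 minutes that ran 30 times per hour, 8 hours a day, for 8 weeks. Control mice breathed room air in the same kind of chamber over those 8 weeks. The labels give no age, and no source states separate animals for the samples, so a p-value here covers only the spread among the samples, which may be technical. The values are read counts, and levels are given as CPM, the count scaled to a common library total, after TMM scaling, which adjusts totals for composition.

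A miRNA guides the silencing complex to mRNAs whose 3′ untranslated region (3′ UTR) matches its seed, so miRNAs with 1 seed share much of their target set. The miR-148/miR-152 family is known for repression of the DNA methyltransferase Dnmt1. miR-148a is also among the most abundant miRNAs of liver and pancreas. The miR-130/miR-301 family is known for repression of the adipocyte regulator Pparg and, in human endothelial cells, of the anti-angiogenic homeobox factor MEOX2. The comparison of CIH with Control asks whether these miRNAs change in kidney under intermittent hypoxia.

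The mature sequences show how close the seeds of the families are. They come from RefSeq on GRCm38.p6, and the capitals mark the seed.
mmu-miR-148a-3p: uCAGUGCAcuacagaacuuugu
mmu-miR-148b-3p: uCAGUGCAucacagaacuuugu
mmu-miR-152-3p: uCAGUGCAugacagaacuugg
mmu-miR-130a-3p: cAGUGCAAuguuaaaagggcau
mmu-miR-130b-3p: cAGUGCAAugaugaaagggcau
mmu-miR-301a-3p: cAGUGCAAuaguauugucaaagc

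All 6 sequences hold the run CAGUGCA. It fills bases 2 to 8 in the miR-148/miR-152 family and bases 1 to 7 in the miR-130/miR-301 family, so the seeds, CAGUGCA and AGUGCAA, share the 6 letters AGUGCA, and each has 1 letter that the other lacks. Within the first family, mmu-miR-148a-3p and mmu-miR-148b-3p differ at 2 of 22 positions, 9 and 10 from the 5′ end, and mmu-miR-148b-3p and mmu-miR-152-3p differ at 2 of the 21 positions compared. In the other family, mmu-miR-130a-3p and mmu-miR-130b-3p differ at 2 of 22 positions, and mmu-miR-301a-3p differs from mmu-miR-130a-3p at 10 of 22. No source used here says how reads that fit more than 1 of these sequences were counted, so counts of members that differ at only 2 positions may hold some of each other's reads. Of the 495 miRNAs, 413 had a sequence in the RefSeq table, and among these no other miRNA had either seed. The nearest were mmu-miR-19a-3p and mmu-miR-19b-3p of the miR-17 to miR-92 polycistron, which hold GUGCAA at bases 2 to 7, where the miR-130/miR-301 family holds it at bases 3 to 8.
mmu-miR-19a-3p: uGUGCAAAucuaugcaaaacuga
mmu-miR-19b-3p: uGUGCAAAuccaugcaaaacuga

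A DNA site with the letters TGCACTG pairs with the miR-148/miR-152 seed, TTGCACT pairs with the miR-130/miR-301 seed, and the 8 letters TTGCACTG hold both in overlap. Among 21020 mouse genes with an annotated 3′ UTR (GENCODE release M21, the longest per gene, median 961 nt, sense strand only), TGCACTG was found in 12.7%, TTGCACT in 9.99% and TTGCACTG in 3.55%. Examples are given from the 3′ UTRs of Dnmt1, Abca1, Pparg, Meox2, Tgfbr1 and Tgfbr2, which were picked from textbook knowledge, and no share is drawn from them. Tgfbr1, a TGF-beta receptor gene, held only the first and its partner Tgfbr2 only the second. The sites printed show each kind, with the seed match in capitals. Dnmt1 held TGCACTG at bases 23 to 29 of its 312 nt 3′ UTR, and Pparg held TTGCACT at bases 42 to 48 of 204 nt. Abca1, the cholesterol exporter, held 2 sites that match both seeds at once in 3156 nt, and the first lies at bases 53 to 60. Meox2 also held 2, and the first lies at bases 270 to 277 of 1157 nt. A match of letters does not show binding, and mRNA was not measured in this series.
Dnmt1, miR-148/miR-152 match: agagccccacgTGCACTGatgtttttaac
Pparg, miR-130/miR-301 match: ccttctattgaTTGCACTattattttgag
Abca1, joint match: aggtcttcctTTGCACTGtgtcaagtgt
Meox2, joint match: ttgctttggcTTGCACTGaaaattaaat

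The hairpins lie at separate places in the mouse genome (GRCm38). mmu-miR-148a-3p lies on chromosome 6 from 51269829 to 51269850, on the minus strand, in a hairpin that no other annotated gene overlaps. mmu-miR-148b-3p is on chromosome 15 from 103285185 to 103285206, inside an intron of Copz1 and on its strand. mmu-miR-152-3p is on chromosome 11 from 96850439 to 96850459, within a Copz2 intron and on its strand. Copz1 and Copz2 are paralogs that encode the zeta subunits of the coatomer, the coat of Golgi vesicles. mmu-miR-130a-3p lies on chromosome 2 from 84741116 to 84741137, on the minus strand, with no other gene over its hairpin. mmu-miR-130b-3p is on chromosome 16 from 17124071 to 17124092, within an intron of 2610318N02Rik, which also holds the hairpin of miR-301b. mmu-miR-301a-3p is on chromosome 11 from 87113054 to 87113076, within an intron of Ska2, a gene of the spindle and kinetochore complex.

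Library totals ran from 5431797 to 7741499 counts. No miRNA of the 495 passed an adjusted p of 0.05 between CIH and Control by edgeR's quasi-likelihood test (0%), and 40 had an unadjusted p under 0.05 (8.08%), 14 higher (2.83%) and 26 lower (5.25%) in CIH. Without TMM scaling this split was 15 higher and 16 lower. DESeq2, edgeR's exact test and limma voom also called 0, with 29, 35 and 38 at an unadjusted p under 0.05. The kidney tubule markers miR-192-5p, miR-194-5p, miR-30a-5p, miR-10a-5p and miR-200b-3p were all abundant, and their summed level ran from 260800.1 to 338589 CPM over the Control libraries and from 249351 to 283370.1 CPM over the CIH libraries. Counting errors given for single libraries cover counting only, since no source used here names molecular identifiers.

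The members were far apart in level, and the order was the same in each of the 6 libraries. mmu-miR-148a-3p was the most abundant, at position 20 of the 495 miRNAs by mean CPM. mmu-miR-152-3p followed at position 35 and mmu-miR-148b-3p at position 54. mmu-miR-130a-3p stood at position 137, mmu-miR-301a-3p at 295 and mmu-miR-130b-3p at 418. No neighbours in this order overlapped: the lowest library of each lay above the highest library of the next. Levels of different miRNAs also depend on how well each one takes up sequencing adapters, which was not measured. Summed over 3 members each, the miR-148/miR-152 family reached 20495 ± 3622 CPM in the Control libraries (SD, n = 3) and 19292 ± 1266 CPM in the CIH libraries. The miR-130/miR-301 family reached 232 ± 12.2 CPM and 201 ± 4.03 CPM, with all CIH libraries below the Control libraries. Within a library, where scaling cancels, the miR-148/miR-152 sum was between 76.7 and 106 times the miR-130/miR-301 sum. mmu-miR-148a-3p made up 67.5% to 75.5% of its family's sum, and mmu-miR-130a-3p made up 93.3% to 94.3% of its own.

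**Figure D1:**
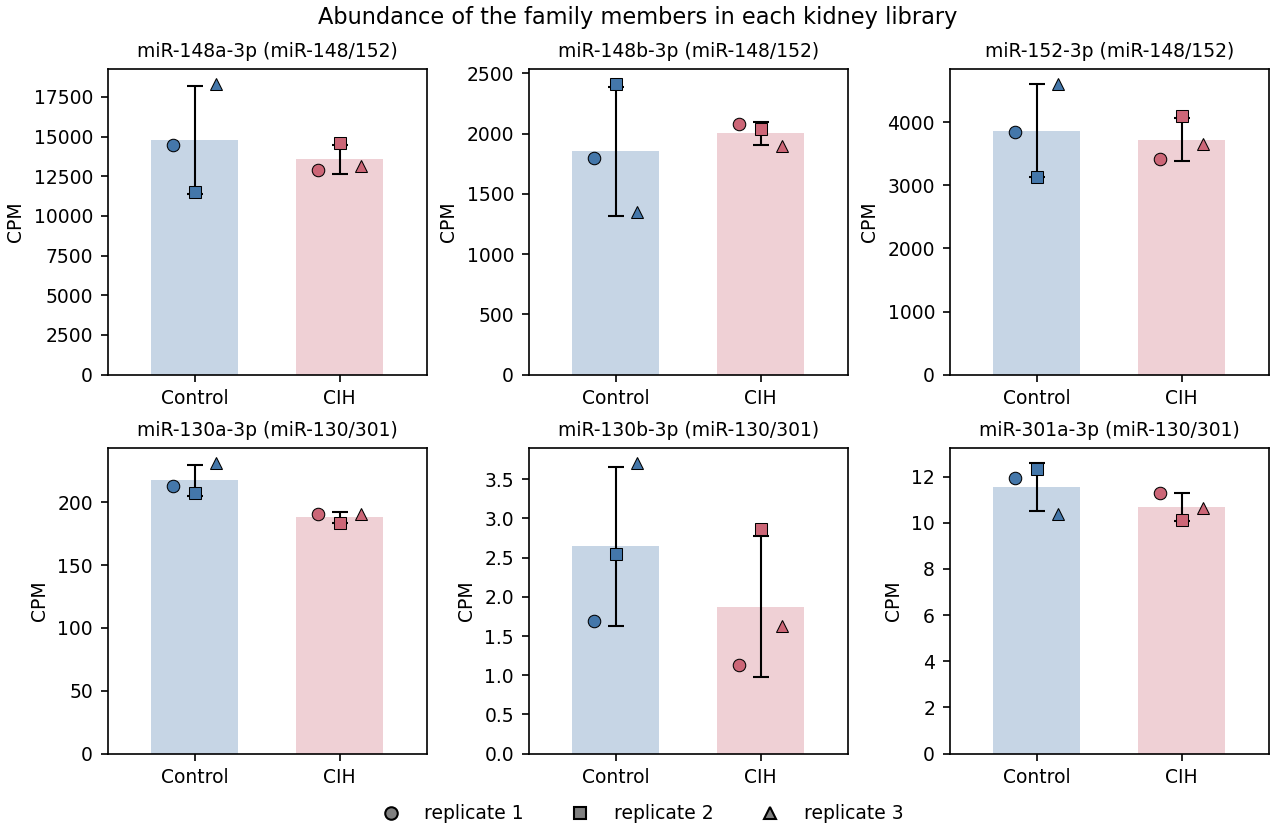
CPM of the 6 members in the 3 Control and 3 CIH libraries, on a linear axis from 0 in each panel. Bars are group means, error bars are 1 SD (n = 3) and symbols mark the replicates. The Control libraries of miR-148a-3p, from 11518 to 18329 CPM, reach beyond both ends of the CIH range, and for miR-130a-3p the CIH libraries all lie below the Control libraries.

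None of the 6 members passed the test between CIH and Control, at an adjusted p of 0.05 or at an unadjusted p of 0.05, where the shares over all miRNAs were 0% and 8.08%. Of the 6, 5 had a lower and 1 had a higher mean in CIH, and without TMM scaling the fold change of mmu-miR-152-3p turned positive. mmu-miR-130a-3p was the only member whose CIH libraries all lay on 1 side of the Control libraries. Over all 495 miRNAs, the groups did not overlap in 12.5%, with CIH below in 7.27% and above in 5.25%. The median log2 fold change over all 495 was -0.002, and without TMM scaling it was 0.06.

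In the miR-130/miR-301 family, mmu-miR-130a-3p had 213, 208 and 231 CPM in Control replicates 1 to 3 and 190.4, 183 and 191 CPM in CIH replicates 1 to 3. The highest CIH library lay under the lowest Control library. The group means were 217 ± 12.4 CPM (SD, n = 3) and 188 ± 4.40 CPM (SD, n = 3), a ratio of 0.866. The log2 fold change was -0.21 (standard error 0.11, 95% interval -0.46 to 0.04, unadjusted p = 0.089 and adjusted p = 0.77 by edgeR). The groups stayed apart with library totals alone, at 180.3 to 199 CPM in CIH and 211 to 215 CPM in Control, and with DESeq2 size factors. Over all alternatives its log2 fold change ran from -0.25 to -0.14 and its unadjusted p from 0.061 to 0.26.

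mmu-miR-301a-3p, a close relative that is processed from the Ska2 intron, was read from 65 to 92 counts per library. It stood at 12.0, 12.3 and 10.4 CPM in the Control libraries, against 11.3, 10.1 and 10.6 CPM under CIH, and the groups overlapped. Its log2 fold change was -0.11 (standard error 0.17, 95% interval -0.49 to 0.26, adjusted p = 0.92 from edgeR). mmu-miR-130b-3p was scarcer, at 13, 14 and 25 reads in the Control libraries, against 9, 21 and 10 under CIH. At about this depth, counting alone gives an error of 25.5% of the value in a library. The levels were 1.69, 2.54 and 3.71 CPM for Control, against 1.13, 2.87 and 1.63 CPM under CIH, and overlapped. Its log2 fold change of -0.48 had a 95% interval from -1.41 to 0.44 (adjusted p = 0.80 from edgeR), so the interval spans CIH levels from 0.377 to 1.36 times Control. Single libraries moved the log2 fold change widely, to -0.94 without CIH replicate 2, -0.79 without Control replicate 1, -0.19 without CIH replicate 1 and -0.14 without Control replicate 3.

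In the miR-148/miR-152 family, mmu-miR-148a-3p stood at 14498, 11518 and 18329 CPM in the Control libraries, against 12925, 14608 and 13170 CPM under CIH. All 3 CIH libraries lay between the lowest and the highest Control library. The log2 fold change was -0.12 (standard error 0.15, 95% interval -0.46 to 0.22, adjusted p = 0.89 by edgeR). mmu-miR-152-3p, the Copz2 intron miRNA, stood at 3841, 3137 and 4605 CPM in the Control libraries, against 3418, 4098 and 3649 CPM under CIH. These CIH libraries also fell inside the Control range. Its log2 fold change was -0.05 (standard error 0.14, 95% interval -0.37 to 0.27, adjusted p = 0.96 from edgeR), and it was 0.014 without TMM scaling. mmu-miR-148b-3p stood at 1797, 2413 and 1349 CPM in the Control libraries, against 2077, 2038 and 1894 CPM under CIH. Again the CIH libraries lay within the Control range, and this was the member with the higher mean in CIH. Its log2 fold change was 0.11 (standard error 0.18, 95% interval -0.29 to 0.51, adjusted p = 0.92 from edgeR). The upper bounds for these 3 members allow CIH levels of at most 1.16, 1.20 and 1.43 times Control for mmu-miR-148a-3p, mmu-miR-152-3p and mmu-miR-148b-3p, and the lower bounds at least 0.725, 0.772 and 0.819 times.

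**Figure D2:**
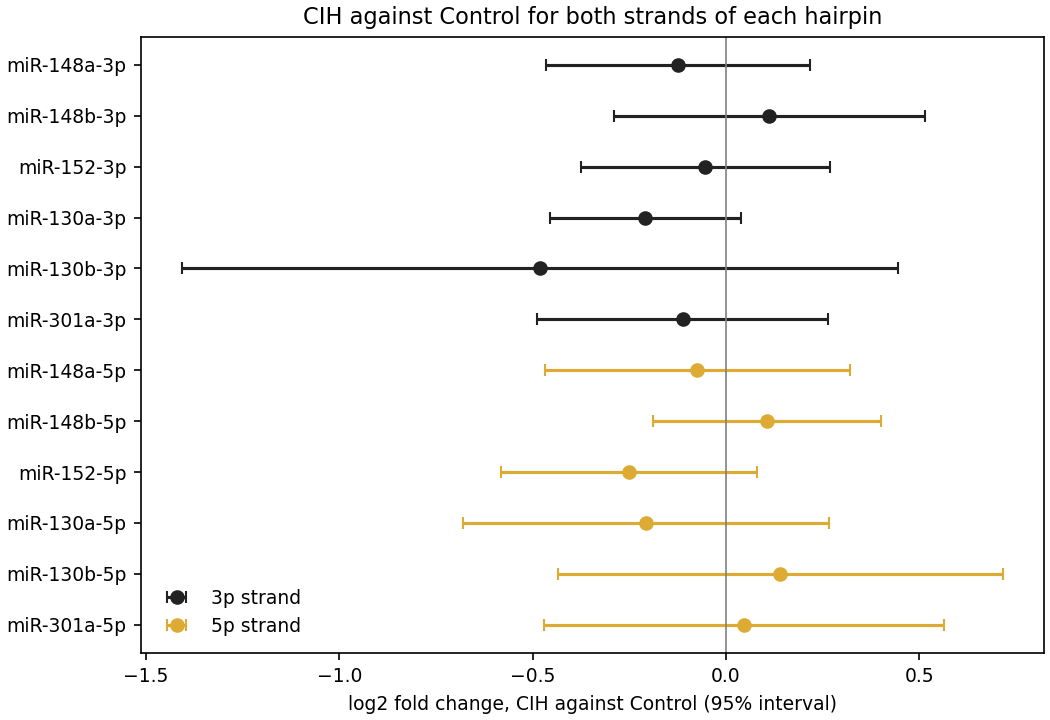
Log2 fold change of CIH against Control from edgeR for both strands of each hairpin, with 95% intervals. All 12 intervals include 0, and that of miR-130a-3p, from -0.46 to 0.04, reaches least far above it among the 3p strands.

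Among Control libraries, mmu-miR-148a-3p and mmu-miR-152-3p moved together and mmu-miR-148b-3p moved the other way. From highest to lowest, mmu-miR-148a-3p and mmu-miR-152-3p put the 6 libraries in the same order: Control replicate 3, CIH replicate 2, Control replicate 1, CIH replicate 3, CIH replicate 1 and Control replicate 2. mmu-miR-148b-3p was highest in Control replicate 2 and lowest in Control replicate 3. The ratio of mmu-miR-148a-3p to mmu-miR-148b-3p was 8.07, 4.77 and 13.6 for Control replicates 1 to 3, against 6.22, 7.17 and 6.95 under CIH. That of mmu-miR-148a-3p to mmu-miR-152-3p stayed between 3.56 and 3.98 in all 6. Over the 6 libraries, Pearson's r of log2(CPM + 0.5) was 0.97 between mmu-miR-148a-3p and mmu-miR-152-3p and -0.94 between mmu-miR-148a-3p and mmu-miR-148b-3p. Without Control replicates 2 and 3, the 2 libraries farthest from the median of mmu-miR-148a-3p, r was 0.92 and -0.33, so the opposite movement of mmu-miR-148b-3p rests on those libraries. These correlations are descriptions of 6 libraries of mixed groups and were picked out after their values were seen. Neither pattern was particular to the family. Among 294 miRNAs from outside the members and their 5p strands, with a mean of at least 10 CPM, 15 had an r over 0.9 with mmu-miR-148a-3p. A further 22 had an r under -0.9 with it.

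**Figure D3:**
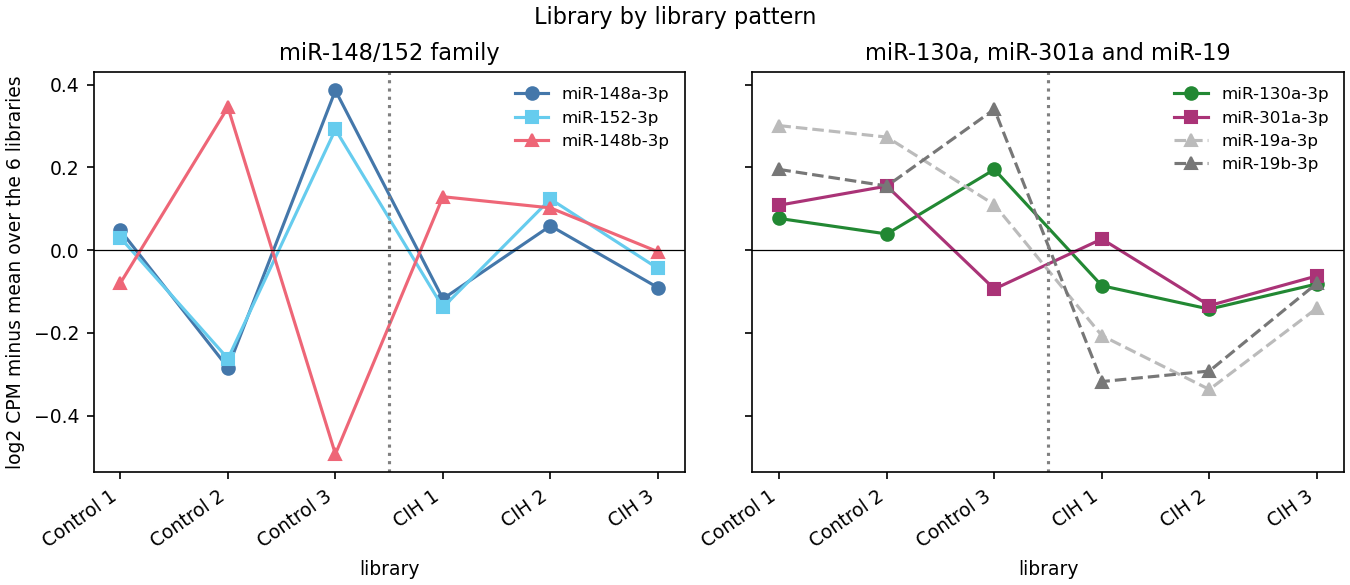
Log2 CPM minus its mean over the 6 libraries, for the miR-148/miR-152 family at left and for miR-130a-3p, miR-301a-3p and miR-19 at right. Lines only link the points of 1 miRNA, since replicates have no order. At left, miR-148a-3p and miR-152-3p peak in Control replicate 3, where miR-148b-3p is lowest. At right, miR-130a-3p, miR-19a-3p and miR-19b-3p lie above 0 in the 3 Control libraries and below 0 in the 3 CIH libraries.

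The direction of the miR-148/miR-152 fold changes depended on single libraries, for all members on Control replicate 3. Without Control replicate 3, the log2 fold change became 0.055 for mmu-miR-148a-3p, 0.087 for mmu-miR-152-3p and -0.077 for mmu-miR-148b-3p, each with the opposite sign. Without Control replicate 2, it was -0.27 for mmu-miR-148a-3p (unadjusted p = 0.040 and adjusted p = 0.35 from edgeR) and 0.35 for mmu-miR-148b-3p (unadjusted p = 0.028 and adjusted p = 0.34). mmu-miR-152-3p was then at -0.18, and at 0.005 without CIH replicate 1. For mmu-miR-148b-3p, the Control libraries had a coefficient of variation of 28.8% and the CIH libraries one of 4.82%, where counting alone gives an error of 0.87% in a library. For mmu-miR-148a-3p the coefficient was 23.1% in Control and 6.70% in CIH, and for mmu-miR-152-3p 19.0% and 9.30%. Of the 68 miRNAs with a mean of at least 1000 CPM, 75.0% had a larger SD of log2 CPM in Control than in CIH, and 2 had a larger Control SD than mmu-miR-148b-3p, 9 than mmu-miR-148a-3p and 17 than mmu-miR-152-3p. A wider Control group was thus common among abundant miRNAs, and the difference in spread was not tested. mmu-miR-130a-3p had a small spread in both groups, with a coefficient of 5.71% in Control and 2.34% in CIH.

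The 5p strands of the same hairpins were all measured and were less abundant in 5 of the 6 hairpins. The 3p strand exceeded the 5p strand by 1044 ± 131 times (SD, n = 3) in Control and 1017 ± 109 times in CIH for miR-148a. For miR-152 the ratio was 38.2 ± 4.39 and 43.6 ± 2.23, and for miR-130a 33.2 ± 4.66 and 32.8 ± 0.567. miR-301a was read almost evenly from both strands, with a ratio of 1.57 ± 0.16 in Control and 1.42 ± 0.282 in CIH. miR-130b had more 5p than 3p reads on average, with a ratio of 0.884 ± 0.269 in Control and 0.575 ± 0.209 in CIH. miR-148b differed most between libraries among the hairpins of its family, with ratios of 26.6, 41.9 and 19.5 for Control, against 27.5, 30.4 and 28.3 under CIH. mmu-miR-148b-5p had 67.6, 57.5 and 69.3 CPM in the Control libraries, so in Control replicate 2 it was lowest where its 3p partner was highest. mmu-miR-148a-5p had 13.1, 12.9 and 16.2 CPM in Control, highest in the library where mmu-miR-148a-3p was highest. Reads per library were few for mmu-miR-148a-5p (71 to 109), mmu-miR-130a-5p (35 to 54), mmu-miR-301a-5p (40 to 65) and mmu-miR-130b-5p (17 to 27). At about these depths, counting alone gives errors of 10.3%, 15.3%, 13.9% and 21.7% in a library, in that order.

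None of the 5p strands passed the test either. mmu-miR-152-5p was the only one of the 6 whose groups did not overlap, where the share over all miRNAs with CIH below was 7.27%. It stood at 89.5, 91.7 and 123 CPM in the Control libraries, against 82.5, 89.3 and 84.1 CPM under CIH, so the groups were parted by a narrow gap. That gap closed with DESeq2 size factors. Its log2 fold change was -0.25 (standard error 0.15, 95% interval -0.58 to 0.08, adjusted p = 0.77 from edgeR). mmu-miR-130a-5p was at -0.21, with a 95% interval from -0.68 to 0.27, and mmu-miR-148b-5p at 0.11, close to the values of their 3p partners. mmu-miR-148a-5p was at -0.07, mmu-miR-301a-5p at 0.05 and mmu-miR-130b-5p at 0.14, each with an interval across 0.

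**Figure D4:**
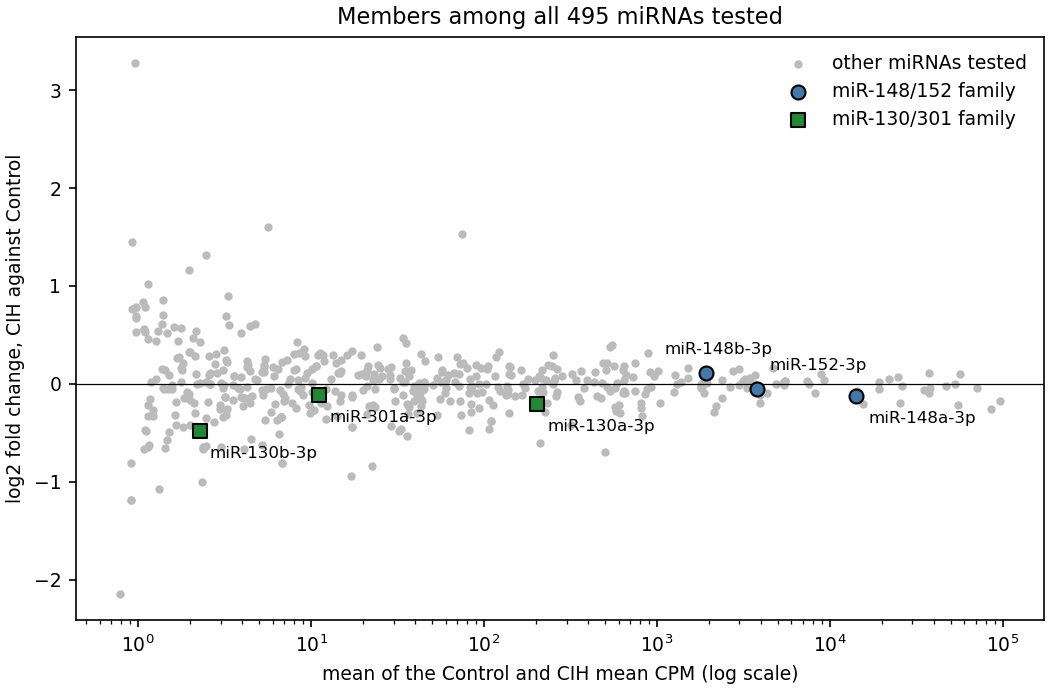
Log2 fold change of CIH against Control for all 495 miRNAs against mean CPM on a log axis, with the 6 members marked. The members stay within the cloud of the other miRNAs at their level, and the spread of the cloud widens towards low CPM, where miR-130b-3p lies.

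Some other miRNAs followed the members closely from library to library. Likeness was measured as Pearson's r of log2(CPM + 0.5) over the 6 libraries, among 294 candidates with a mean of at least 10 CPM, and the 3 highest are given as a description. mmu-miR-148a-3p was followed by mmu-miR-3081-3p, mmu-miR-101b-3p and mmu-miR-378c (r = 0.97 each). mmu-miR-152-3p was followed by mmu-miR-378c (r = 0.998), mmu-miR-3068-3p (r = 0.96) and mmu-miR-101b-3p (r = 0.95), so 2 of the 3 were shared with mmu-miR-148a-3p. A high r does not mean changes of like size. mmu-miR-378c ran only from 3352 to 3632 CPM over the 6 libraries, where mmu-miR-152-3p ran from 3137 to 4605 CPM. mmu-miR-148b-3p was followed by mmu-miR-423-3p (r = 0.99), mmu-miR-328-3p (r = 0.99) and mmu-miR-421-3p (r = 0.98), and 30 candidates had an r over 0.9 with it. mmu-miR-328-3p had 487 CPM in Control replicate 2 and 222 CPM in Control replicate 3, the same extremes as mmu-miR-148b-3p. mmu-miR-130a-3p was followed by mmu-miR-340-5p (r = 0.97), mmu-miR-19b-3p (r = 0.95) and mmu-miR-24-2-5p (r = 0.93). mmu-miR-301a-3p was followed by mmu-miR-872-3p (r = 0.94), mmu-miR-221-3p (r = 0.91) and mmu-miR-199a-5p (r = 0.90). For mmu-miR-130b-3p the nearest were mmu-miR-183-5p (r = 0.93), mmu-miR-499-5p (r = 0.89) and mmu-miR-196a-1-3p (r = 0.88). Its pattern rests on 9 to 25 reads per library, where counting alone gives an error of about 25.5%. These r share libraries and scaling, and with 6 libraries they are no more than a description.

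mmu-miR-19a-3p and mmu-miR-19b-3p, which share GUGCAA with the miR-130/miR-301 family, were lower in all CIH libraries. In the family itself this held for mmu-miR-130a-3p only, and the groups overlapped for mmu-miR-301a-3p and mmu-miR-130b-3p. The groups also overlapped for mmu-miR-148a-3p, mmu-miR-148b-3p and mmu-miR-152-3p, whose seed shares AGUGCA with that of the miR-130/miR-301 family. mmu-miR-19b-3p stood at 120, 117 and 133 CPM in the Control libraries, against 84.0, 85.5 and 99.0 CPM under CIH. These are levels of its entry of highest total. With entries summed, mmu-miR-19b-3p was at 202 to 237 CPM in Control and 144 to 171 CPM in CIH. mmu-miR-19a-3p stood at 40.1, 39.4 and 35.2 CPM in the Control libraries, against 28.2, 25.8 and 29.6 CPM under CIH. The groups did not overlap for either, where the share over all miRNAs with CIH below was 7.27%. Their log2 fold changes of -0.46 and -0.46 had an unadjusted p of 0.0045 and 0.0078 and an adjusted p of 0.55 and 0.57 from edgeR, so neither passed over all miRNAs, of which 8.08% had an unadjusted p under 0.05. mmu-miR-721, which was also listed as a seed relative, was not analysed here.

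Among other miRNAs known to repress DNA methyltransferases, as the miR-148/miR-152 family does, 0 of 5 passed the adjusted p, 3 had a positive and 2 a negative log2 fold change, and the median was 0.03, against -0.002 over all miRNAs. The miR-29 family is known to repress Dnmt3a and Dnmt3b. mmu-miR-29b-3p stood at 849, 900.4 and 895 CPM in the Control libraries, against 759, 753 and 721 CPM under CIH, a log2 fold change of -0.24 (unadjusted p = 0.036 and adjusted p = 0.57 from edgeR). mmu-miR-29a-3p and mmu-miR-29c-3p were at 0.03 and 0.05, and the 95% intervals of all 3 overlapped. mmu-miR-185-5p was at 0.13 and mmu-miR-342-3p at -0.05. Among miRNAs known to repress cholesterol genes such as Abca1, 0 of 6 passed, 3 were positive and 3 negative, and the median was 0.008. mmu-miR-33-5p, encoded in the gene of the sterol regulator Srebf2, stood at 11.3, 12.0 and 9.50 CPM in the Control libraries, against 9.41, 9.42 and 7.51 CPM under CIH, a narrow gap between the groups (log2 fold change -0.30, adjusted p = 0.77 from edgeR). mmu-miR-27a-3p was higher in each CIH library, at 4726 to 5431 CPM against 4223 to 4585 CPM (log2 fold change 0.16, adjusted p = 0.77 from edgeR). For scale, all CIH libraries lay below in 7.27% of all miRNAs and above in 5.25%. The share at an unadjusted p under 0.05 from edgeR was 8.08%. mmu-miR-27b-3p, mmu-miR-128-3p, mmu-miR-145a-5p and mmu-miR-144-3p were at 0.11, 0.03, -0.02 and -0.09. mmu-miR-758-3p was not analysed here.

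Kidney tissue holds several cell types, and in bulk samples fewer cells of a type and less of a miRNA per cell cannot be told apart. Of the liver and pancreas markers, where miR-148a is also abundant, mmu-miR-122-5p was at 17.4 to 48.1 CPM in Control and 19.6 to 77.9 CPM in CIH, highest in CIH replicate 3. Of 4 pancreas markers, 2 were measured. mmu-miR-217-5p was at 0.130, 0 and 0.297 CPM for Control, against 0.502, 0.273 and 4.57 CPM under CIH, so the groups overlapped and CIH replicate 3 stood highest (log2 fold change 3.27, unadjusted p = 0.022 and adjusted p = 0.57 from edgeR). mmu-miR-375-3p was at 68.6 to 72.8 CPM in Control and 72.4 to 98.0 CPM in CIH, highest in CIH replicate 2, so its groups overlapped. The sum of both lay higher in all CIH libraries (74.9 to 98.3 CPM) than in all Control libraries (68.8 to 72.9 CPM). In CIH replicate 3, that rested on the 4.57 CPM of mmu-miR-217-5p. Among single miRNAs, the share with CIH above was 5.25%. The summed endothelial markers were at 49948 to 59944 CPM in Control and 52882 to 56041 CPM in CIH, and the summed leukocyte markers at 929.9 to 1084 CPM and 977 to 1097 CPM. The smooth muscle and mesenchyme markers had sums from 51239.9 to 57303 CPM in Control and from 51111 to 56137 CPM in CIH. For these 3 lists the groups overlapped and no member passed an unadjusted p of 0.05. The erythroid markers summed to 5339 to 6537 CPM and 5547 to 7125 CPM, and 1 of 3, mmu-miR-486a-5p, was higher in all CIH libraries (log2 fold change 0.38, unadjusted p = 0.020 and adjusted p = 0.57 from edgeR). The others, mmu-miR-451a and mmu-miR-144-3p, overlapped between groups, with log2 fold changes of 0.009 and -0.09. Over all miRNAs, CIH lay above in 5.25%, and 8.08% had an unadjusted p under 0.05. Of the markers of stratified epithelium and urothelium, mmu-miR-205-5p was at 0.50 CPM in CIH replicate 1 and at 18.6 to 38.8 CPM in the other libraries. mmu-miR-203-3p, of the same list, was at 1768 to 1898 CPM for Control and 1822 to 2049 CPM for CIH. The part of cell composition in any of these values was not tested.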

How the data were processed

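Small RNA libraries of 3 Control and 3 CIH kidney samples, grouped by their titles, were analysed. Raw read counts per mature miRNA entry were used as the authors deposited them. The submitters' notes name cutadapt and Bowtie without versions, and no source used here gives a miRBase release. Of 584 entries, 133 belonged to 44 miRNAs with several entries, and for these the entry of highest total stood for the miRNA. Each member had 1 entry. miRNAs with reads in at least 3 libraries were tested with edgeR 4.0.16 (quasi-likelihood, TMM, group as the only term, Benjamini-Hochberg over 495) in R 4.3.3, and the 95% intervals come from the same fit. The version of the quasi-likelihood fit (not legacy, not robust) follows an earlier processing of these data and was settled after 4 versions had been run, which gave 38 to 40 miRNAs at an unadjusted p under 0.05 and changed no call of a member. Alternatives used DESeq2 1.42.0, edgeR's exact test, limma 3.58.1 (voom), other scalings, filters on low counts, other treatments of entries, a replicate block and each library left out. The code was tested on simulated counts. Sequences came from RefSeq (GRCm38.p6) and 3′ UTRs from GENCODE release M21. The target genes were picked from textbook knowledge, and some of those picked are not reported here. Named miRNAs are the members, their 5p strands, the 3 nearest patterns per member, and lists of related and marker miRNAs. Members and lists were chosen with earlier results of these data known.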

Additional observations from a re-analysis of the deposited data

How the results depend on the processing

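No member passed an adjusted p of 0.05 under any of the 20 alternatives, and 114 of 119 values for the members kept the sign reported. Some of these could not differ. Dropping the filter removed nothing and gave the reported values, and the robust fit left the log2 fold changes as they were. mmu-miR-130b-3p has no value at a mean of at least 10 CPM, where it was filtered out. With 1 library left out, the log2 fold change ran from -0.27 to 0.055 for mmu-miR-148a-3p, from -0.077 to 0.35 for mmu-miR-148b-3p and from -0.18 to 0.087 for mmu-miR-152-3p, with opposite signs without Control replicate 3 and, for mmu-miR-152-3p, at 0.005 without CIH replicate 1. mmu-miR-152-3p was at 0.014 without TMM scaling, since library totals alone raise the median of all miRNAs from -0.002 to 0.06. The summed miR-130/miR-301 level had a log2 CIH to Control ratio of -0.21, and of -0.14 on library totals alone. The number of miRNAs at an unadjusted p under 0.05 was 40, fell to 23 at a mean of at least 10 CPM, where fewer miRNAs were tested, and ran from 22, without CIH replicate 1 or CIH replicate 2, to 65, without Control replicate 2. It was 26 without Control replicate 1. The other versions of the quasi-likelihood fit, added after the data were seen, gave 38 to 39. Same-numbered deviations had r of -0.06, -0.15 and -0.03, and differently numbered ones ran from -0.13 to 0.19. These values gave no sign of pairing by replicate number, but so few cannot exclude it. The replicate block left 30 miRNAs at an unadjusted p under 0.05 and changed no call of a member. Depth limits mmu-miR-130b-3p most, with 92 counts in all, and its log2 fold change ran from -0.94, without CIH replicate 2, to -0.14, without Control replicate 3. With 1 library left out, that of mmu-miR-130a-3p ran from -0.25 to -0.17 and that of mmu-miR-301a-3p from -0.19 to -0.07. Without TMM scaling these members were at -0.14 and -0.05.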
